A study of Arabidopsis thaliana with 9 samples.

Results

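The transcripts of 10 genes that place, remove or protect DNA methylation and methylation of histone H3 at lysine 9 (H3K9) were followed in Arabidopsis thaliana seedlings that carry an altered histone H3.3. The genes were taken by a list of loci whose rule uses no measured value, and all 10 were found among the 27655 genes of the deposited table and passed the filter on low values. They are MET1 (AT5G49160), CMT3 (AT1G69770), CMT2 (AT4G19020), DRM2 (AT5G14620), NRPE1 (AT2G40030), DDM1 (AT5G66750), KYP (AT5G13960, also called SUVH4), IBM1 (AT3G07610), ROS1 (AT2G36490) and DME (AT5G04560). RNA was sequenced from whole seedlings of an age of 10 days, grown in 16 h light and 8 h dark at 22 °C. There were 3 groups with 3 libraries each. The wild type was of the Col accession. The lines of the other groups are labelled h3.3ko;HTR5 G34R (G34R here) and h3.3ko;HTR5 G34W (G34W here). By the usual notation, both carry a knockout background of the H3.3 genes together with an HTR5 gene, one of the genes for H3.3, in which a glycine is exchanged for arginine or for tryptophan. The h3.3ko background is shared by both lines and absent from the wild type. No h3.3ko line with an intact HTR5 copy is part of these comparisons, and the effects of background and substitution cannot be told apart. The labels state neither how many independent lines each name covers nor the promoter of the HTR5 copy.

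Plant DNA is methylated at cytosines in CG, CHG and CHH contexts, where H is any base but G. MET1 copies CG methylation after replication. CMT3 and CMT2 bind nucleosomes methylated at H3K9 and methylate CHG and CHH sites, and KYP binds methylated DNA and methylates H3K9, so that both marks sustain each other. DRM2 adds methylation where small RNAs and the transcripts of RNA polymerase V direct it, and NRPE1 is the largest subunit of that polymerase. DDM1 is a chromatin remodeller that gives the methyltransferases access to heterochromatin. IBM1 is a demethylase that removes H3K9 methylation from transcribed genes and so keeps CHG methylation out of them, and ROS1 and DME are DNA glycosylases that cut out methylated cytosine. ROS1 is known as a gauge of methylation in this species, because methylation near its own promoter promotes its transcription.

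The deposited values are TPM, a measure of transcript abundance relative to all transcripts of the library, and the division by length in them used the gene span with its introns. Each library held 12889624 to 14730745 recovered reads, so that in a 1 kb gene a count of 3 reads equals 0.422 to 0.495 TPM. Of the H3.3 genes, HTR8 was reduced to a few TPM in both lines, while HTR4 was reduced but still expressed. HTR8 read 207 to 214 TPM in the wild-type libraries, 3.92 to 5.86 TPM in those of G34R and 4.65 to 6.69 TPM in those of G34W. HTR4 read 408 to 438 TPM, 132 to 137 TPM and 152 to 165 TPM in the same order, and HTR5 lay at 331 to 390 TPM in every library. Changes below are log2 fold changes on the log2(TPM + 1) scale with their standard errors, and a gene is called when its Benjamini-Hochberg adjusted p in limma, over the 18544 genes that average 1 TPM or more, is under 0.05.

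Some differences ran through the whole transcriptome and set the scale for the 10 genes. The median gene changed by 0.10 in G34R and by 0.21 in G34W, and 6419 genes were called higher and 3060 lower in G34R, 8300 and 2427 in G34W. Under median-ratio scaling, which centres the median gene near 0, these counts were 4665 higher and 4911 lower in G34R, and 4500 and 4509 in G34W. Between the lines, 3982 genes were called higher and 2192 lower in G34W, and 2492 and 3250 under that scaling. The change also varied with transcript length: in G34R its median fell from 0.283 over genes with under 1 kb of exons to -0.157 over those with more than 5 kb, and in G34W from 0.312 to 0.111. Within the G34R group, replicate 1 lay at -0.213 and replicate 3 at 0.221 from the group mean over the genes of more than 5 kb, while the other 7 libraries lay between -0.068 and 0.0505. The 10 genes have 2331 to 7191 bp of exons, and G34R replicate 1 was the lowest of its group for 8 of them and replicate 3 the highest for 9. A version of the comparison with this trend removed from each library, added after it was seen, is given below wherever it alters a call of the 10 genes. That version called 4441 of 18465 genes higher and 4758 lower in G34R, and 4470 and 4529 in G34W. Between the lines it called 2701 higher and 3212 lower in G34W.

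**Figure D1:**
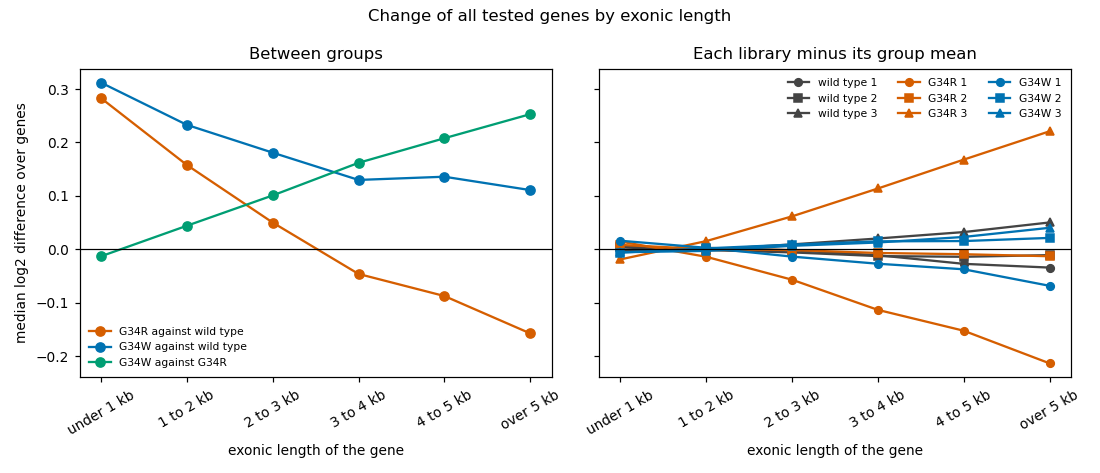
Median log2 difference of all tested genes in 6 classes of exonic length, between groups (left) and for each library against the mean of its own group (right). G34R replicates 1 and 3 separate with length in opposite directions, to -0.213 and 0.221 in genes of more than 5 kb, and the difference between G34W and G34R rises from -0.0128 to 0.253.

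Whole seedlings are a mixture, and a change in the share of a cell type cannot be told apart from a change in transcript per cell. The summed level of 12 dividing cell markers was 149 to 169 TPM in wild type and 167 to 179 TPM in G34R. It was 215 to 225 TPM in G34W. Limma called 12 of the 12 higher in G34W and 5 in G34R, beside 44.8% and 34.6% of all tested genes. Under median-ratio scaling 6 were called higher in G34W, beside 4500 of the 18544 genes. That scaling called 3 higher and 2 lower in G34R, beside 4665 and 4911 genes. With the length trend removed 8 were called higher and 0 lower in G34W, beside 4470 and 4529 genes. In G34R these counts were 3 and 2, beside 4441 and 4758 genes. The summed level of 6 root markers was 84.2 to 90.6 TPM in wild type, 146 to 162 TPM in G34R and 135 to 146 TPM in G34W. The root markers did not move as one. CASP1, CASP2, EXP7 and PRP3 were called higher in both lines and SHR in neither. SCR was called lower in G34R (-0.24 ± 0.07) and was not called in G34W. The summed level of 5 leaf markers was 74440 to 75590 TPM, 65320 to 70460 TPM and 67820 to 69550 TPM in wild type, G34R and G34W. RBCS1A was called higher in G34W and the other 4 lower. In G34R 3 were called lower and 0 higher. Over all tested genes 13.1% were called lower in G34W and 16.5% in G34R. Flower markers summed to at most 3.5 TPM in any library, with AG at 0 in G34R. Seed markers summed to 2.67 to 3.94 TPM in wild type, where CRU3 was at 0, 23.8 to 26.3 TPM in G34R and 4.2 to 5.78 TPM in G34W, and they did not move as one: CRA1 had means of 0.304, 19.8 and 3.77 TPM in wild type, G34R and G34W, and OLEO2 had 3.0, 3.24 and 0.642 TPM. The part of these tissues in the results below was not tested.

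In G34R 2 of the 10 genes were called, both lower: CMT2 and IBM1. Over all tested genes 34.6% were called higher and 16.5% lower in that comparison. In G34W 3 were called higher, DDM1, ROS1 and DME, and 1 was called lower, CMT2, where 44.8% of all genes were called higher and 13.1% lower. The median change of the 10 genes was 0.04 in G34R and 0.20 in G34W, beside 0.10 and 0.21 over all genes. No member changed by more than 0.44 in either direction. Both comparisons share the wild-type libraries.

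The genes were of moderate abundance. In wild type CMT2 was highest with 17.5 ± 1.46 TPM (SD, n = 3), followed by MET1 with 14.2 ± 1.28 TPM, ROS1 with 12.0 ± 0.69 TPM and CMT3 with 9.69 ± 0.54 TPM, and the ranges of these neighbours did not overlap. DRM2, DME, DDM1 and IBM1 came next, with means between 7.17 and 8.21 TPM, and each overlapped its neighbour in that order. KYP with 5.14 ± 0.19 TPM and NRPE1 with 3.31 ± 0.07 TPM were the lowest, each apart from its neighbours. In G34R each of the first 6 genes in the order overlapped the next, and IBM1 moved to the ninth place, below KYP, with overlapping ranges. In G34W MET1 stood first with 16.5 ± 0.79 TPM, followed by ROS1 with 14.6 ± 0.64 TPM and CMT2 with 14.3 ± 1.33 TPM, which overlapped. Recomputed per kb of exons, CMT2 was first in all 3 groups, G34W included, with 21.4, 16.2 and 17.2 TPM in wild type, G34R and G34W.

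**Figure D2:**
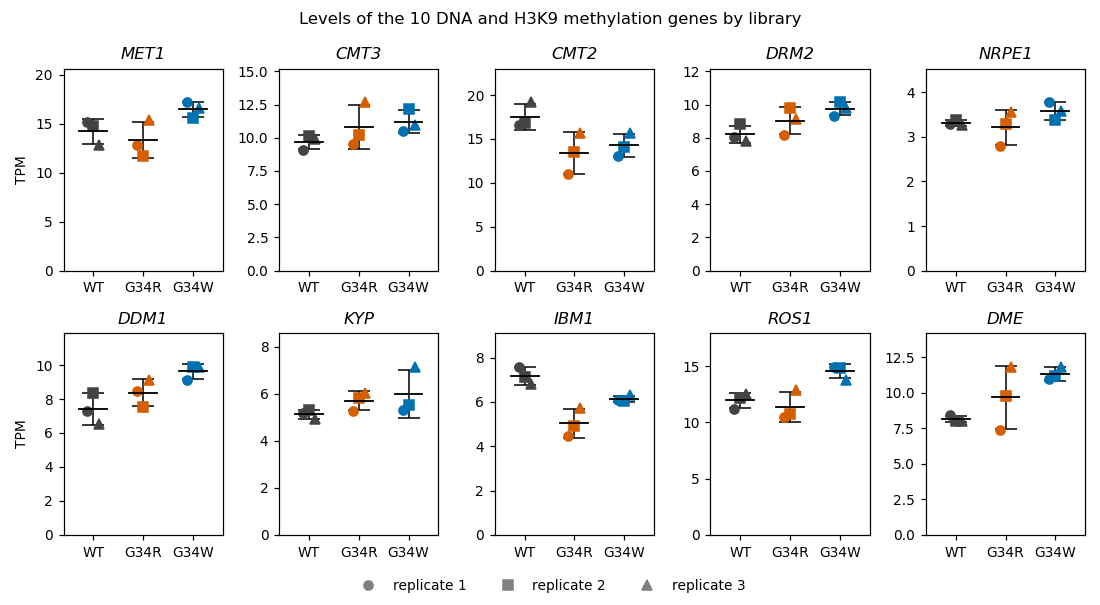
TPM of the 10 genes in each library (points, shaped by replicate number), with the mean and SD of each group of 3 as lines. For CMT2 and IBM1 no library of either line reaches the lowest wild-type library, and for DME the 3 G34R libraries spread from 7.38 to 11.8 TPM around the wild-type level.

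Among the methyltransferases, CMT2 was the one that was called. CMT2, which keeps CHH methylation in the body of long heterochromatic transposons, measured 16.6, 16.8 and 19.2 TPM in the wild-type libraries, 11.0, 13.5 and 15.7 TPM in those of G34R and 13.1, 14.0 and 15.7 TPM in those of G34W. These values rest on 535 to 860 reads per library. All 6 libraries of the lines were below all 3 of the wild type. CMT2 fell by 0.37 ± 0.11 in G34R (adjusted p = 0.0114) and by 0.28 ± 0.11 in G34W (adjusted p = 0.0444). It kept its direction in all 16 alternatives in both lines. The call in G34R was lost without wild-type replicate 3 (adjusted p = 0.0587) or without G34R replicate 1 (-0.25, adjusted p = 0.0653). The call in G34W was lost with no filter on low values (adjusted p = 0.0775) and in 5 of the 6 cases that leave out 1 library, with adjusted p between 0.0523 and 0.166; without G34W replicate 3 it held at 0.0312. Under median-ratio scaling the changes were larger, -0.50 in G34R (adjusted p = 0.00105) and -0.49 in G34W (adjusted p = 0.00128). With the length trend removed they were -0.30 (adjusted p = 0.00736) and -0.40 (adjusted p = 0.000832).

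CMT3, the partner of KYP in CHG methylation, measured 9.08, 10.1 and 9.89 TPM in the wild-type libraries, 9.55, 10.2 and 12.7 TPM in those of G34R and 10.5, 12.2 and 11.0 TPM in those of G34W. The G34W libraries lay above those of the wild type, by 0.19 ± 0.11, and the change was not called (adjusted p = 0.147), nor was that in G34R (0.13 ± 0.11, adjusted p = 0.325). No alternative called CMT3, and under median-ratio scaling its difference in G34W was -0.01. CMT2 and CMT3 stood in different proportion within each library. The ratio of CMT2 to CMT3 was 1.81 ± 0.14 in wild type, 1.24 ± 0.09 in G34R and 1.28 ± 0.14 in G34W (SD, n = 3). The wild-type ratios ran from 1.66 to 1.94 and those of the lines from 1.15 to 1.43. A ratio within a library does not depend on scaling by 1 factor per library, but it still carries the length trend. CMT2 has 4315 bp of exons and CMT3 has 3066 bp, and the ratio was not recomputed with that trend removed. Gene by gene, with the trend removed, the libraries of the lines lay at log2 differences of -0.483 to -0.228 from the wild-type mean for CMT2. For CMT3 they lay at -0.0181 to 0.265. The wild-type libraries lay at -0.0537 to 0.0993 and -0.0757 to 0.0671. The ratio was examined after the values of both genes had been seen and carries no test.

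**Figure D3:**
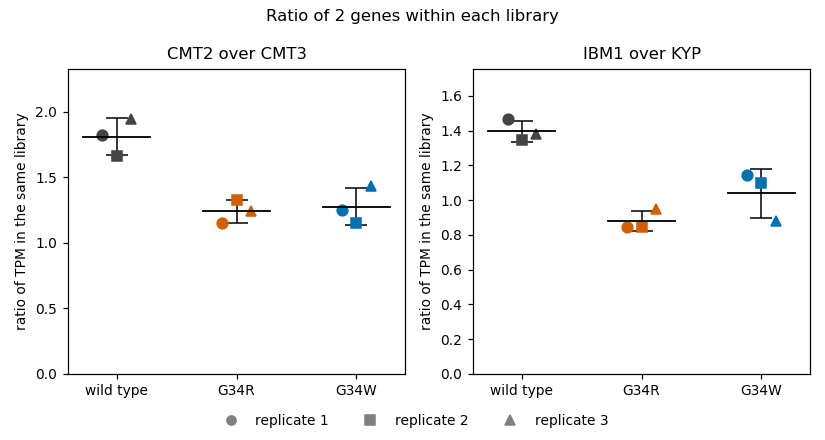
Ratio of the TPM of CMT2 to CMT3 (left) and of IBM1 to KYP (right) within each library, with the mean and SD of each group of 3. The 3 wild-type libraries lie above all 6 libraries of the lines in both ratios.

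MET1 measured 15.2, 14.8 and 12.8 TPM in the wild-type libraries, 12.8, 11.7 and 15.4 TPM in those of G34R and 17.2, 15.6 and 16.6 TPM in those of G34W, from 506 to 729 reads per library. The G34R libraries spread across the wild-type range, and the 3 G34W libraries lay above both other groups. Neither line was called against wild type: the change was -0.10 ± 0.10 in G34R (adjusted p = 0.454) and 0.20 ± 0.10 in G34W (adjusted p = 0.103). The difference in G34W was about that of the median gene, and under median-ratio scaling it was -0.01. A fit with voom on the recovered reads called MET1 lower in G34R with median-ratio scaling (-0.23, adjusted p = 0.0161) and higher in G34W with library totals (0.20, adjusted p = 0.0351).

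DRM2, the main methyltransferase of the RNA-directed pathway, measured 8.03, 8.81 and 7.80 TPM in the wild-type libraries, 8.17, 9.79 and 9.12 TPM in those of G34R and 9.33, 10.1 and 9.77 TPM in those of G34W. The G34R values overlapped those of the wild type and the G34W values did not. It was called in neither line, at 0.12 ± 0.10 (adjusted p = 0.341) and 0.22 ± 0.10 (adjusted p = 0.0722), nor in any alternative. NRPE1, which acts before DRM2 in that pathway, was the lowest of the 10, with 3.28, 3.39 and 3.26 TPM in the wild-type libraries, 2.78, 3.3 and 3.56 TPM in those of G34R and 3.77, 3.38 and 3.58 TPM in those of G34W. The G34R libraries lay on both sides of the wild type. Its changes of -0.04 in G34R (adjusted p = 0.841) and 0.09 in G34W (adjusted p = 0.604), each ± 0.13 to 0.14, were not called, and with the length trend removed both turned their sign, to 0.12 and -0.03.

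DDM1, the chromatin remodeller, measured 7.29, 8.38 and 6.50 TPM in the wild-type libraries, 8.49, 7.56 and 9.10 TPM in those of G34R and 9.12, 9.91 and 9.86 TPM in those of G34W. The G34W libraries lay above every wild-type library, while G34R overlapped the wild type. DDM1 rose by 0.35 ± 0.11 in G34W (adjusted p = 0.0148), and its difference in G34R was 0.16 ± 0.11 (adjusted p = 0.239). The rise lost its call under median-ratio scaling (0.15, adjusted p = 0.278), with the length trend removed (0.20, adjusted p = 0.143) and without wild-type replicate 3 (0.27, adjusted p = 0.0747). These are not all of the losses. The rise was called in 11 of 16 alternatives, with changes down to 0.109 and adjusted p up to 0.426. The dividing cell markers were higher in the same libraries, where 44.8% of all tested genes were called higher. A link between them and DDM1 was not tested.

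On the histone side, IBM1 fell in G34R. IBM1 measured 7.59, 7.12 and 6.79 TPM in the wild-type libraries, 4.46, 4.92 and 5.73 TPM in those of G34R and 6.08, 6.04 and 6.30 TPM in those of G34W, from 229 to 342 reads per library. The 3 groups did not overlap, with the G34W libraries between the other two groups. IBM1 fell by 0.44 ± 0.12 in G34R (adjusted p = 0.0048), and the fall was called in all 16 alternatives, from -0.65 to -0.35 with adjusted p of 4.75e-07 to 0.0223. In G34W its difference of -0.19 ± 0.12 was not called (adjusted p = 0.169). Relative to the median gene it was larger: under median-ratio scaling IBM1 was called lower in G34W too (-0.39, adjusted p = 0.00864), as it was with the length trend removed (-0.32, adjusted p = 0.0174), and in 5 of 16 alternatives in all. With the length trend removed, the 3 G34R libraries lay at -0.326, -0.367 and -0.361 from the wild-type mean and the 3 G34W libraries at -0.286, -0.35 and -0.31. The lines then differed by 0.04 (adjusted p = 0.83).

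IBM1 is known to carry a long methylated intron that must be read through for the full transcript, a step in which EDM2, IBM2 and AIPP1 take part. In the TAIR10.1 annotation the gene has 3 transcripts with 7 to 17 exons and a longest intron of 1974 bp. The deposited table holds 1 value per gene, so full-length and shortened IBM1 transcripts are not separated in these values. EDM2 had means of 15.2, 12.9 and 15.1 TPM in wild type, G34R and G34W, and its difference of -0.23 ± 0.09 in G34R was not called (adjusted p = 0.0518). This value is close to the threshold, and the G34R libraries of EDM2 all lay below those of the wild type. Relative to the median gene the difference was -0.33. The calls of EDM2 in the alternatives are not given here. IBM2 was not called either (0.15 ± 0.17 in G34R, adjusted p = 0.48). EDM2 and IBM2 were picked for their role after the values had been seen. AIPP1 is described with the H3K9 genes below.

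KYP, the H3K9 methyltransferase that IBM1 counters, measured 5.19, 5.30 and 4.93 TPM in the wild-type libraries, 5.27, 5.82 and 6.05 TPM in those of G34R and 5.31, 5.51 and 7.16 TPM in those of G34W. One G34W library stood above the rest, and 5 of the 6 libraries of the lines lay between 5.27 and 6.05 TPM. KYP was called in neither line (0.13 ± 0.13, adjusted p = 0.424, and 0.18 ± 0.13, adjusted p = 0.241) nor in any alternative. It shares 60 bp with the antisense gene AT5G13970, whose reads may be counted with it, and none of the other 9 genes overlaps another gene. The ratio of IBM1 to KYP within a library was 1.40 ± 0.06 in wild type, 0.88 ± 0.06 in G34R and 1.04 ± 0.14 in G34W (SD, n = 3). The lowest wild-type ratio was 1.34 and the highest ratio in the lines was 1.15. This ratio too was taken after the values had been seen and carries no test. It also carries the length trend, with 4664 bp of exons in IBM1 and 2554 bp in KYP. With that trend removed, the libraries of the lines lay at -0.367 to -0.286 from the wild-type mean for IBM1. For KYP they lay at -0.107 to 0.243.

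The demethylases ROS1 and DME were higher in G34W. ROS1, the main DNA demethylase of vegetative tissue, measured 11.2, 12.2 and 12.5 TPM in the wild-type libraries, 10.5, 10.8 and 12.9 TPM in those of G34R and 15.0, 14.9 and 13.8 TPM in those of G34W. All 3 G34W libraries lay above the 6 others. ROS1 rose by 0.26 ± 0.10 in G34W (adjusted p = 0.0277), and its difference in G34R was -0.07 ± 0.10 (adjusted p = 0.566). Voom with median-ratio scaling called ROS1 lower in G34R (-0.21, adjusted p = 0.0186), as the only 1 of 16 alternatives that did. The rise lost its call under median-ratio scaling (0.06, adjusted p = 0.623), with the length trend removed (0.14, adjusted p = 0.163), and without wild-type replicate 1, G34W replicate 1 or G34W replicate 2 (adjusted p of 0.0774 to 0.101). These are not all of the losses. The rise was called in 9 of 16 alternatives, with changes down to 0.0441 and adjusted p up to 0.702.

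DME, best known for demethylation in the central cell before seed formation and also active in other tissues, measured 8.40, 7.99 and 8.03 TPM in the wild-type libraries, 7.38, 9.77 and 11.8 TPM in those of G34R and 11.0, 11.2 and 11.8 TPM in those of G34W. The G34W libraries were close together and all above the wild type, and the G34R libraries reached from below the wild type up to the G34W level. DME rose by 0.43 ± 0.13 in G34W (adjusted p = 0.00895). This rise was called in each of the 6 cases that leave out 1 library and with the length trend removed (0.32, adjusted p = 0.00723), and it was lost under median-ratio scaling (0.23, adjusted p = 0.127) and quantile normalization (0.20, adjusted p = 0.182). In G34R the difference of 0.20 ± 0.13 was not called (adjusted p = 0.204). DME has the longest exonic sequence of the 10, 7191 bp, and with the length trend removed the 3 G34R libraries lay at 0.274, 0.414 and 0.408 from the wild-type mean, a rise of 0.37 (adjusted p = 0.00272). Without G34R replicate 1 and with the length trend left in, the rise in G34R was 0.36 (adjusted p = 0.0122).

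**Figure D4:**
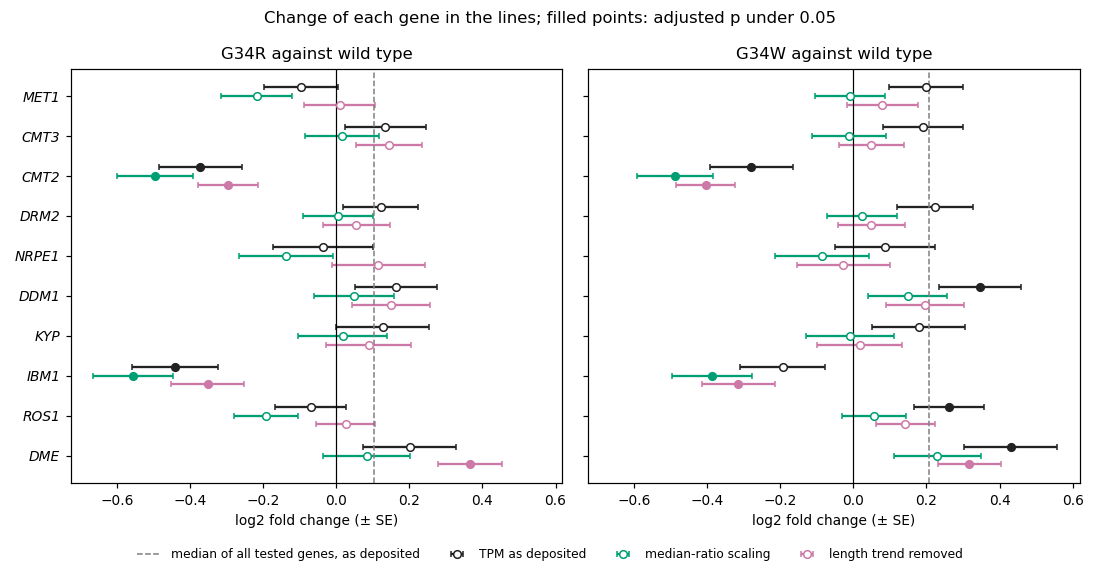
Log2 fold change of each gene with its standard error in G34R (left) and G34W (right) against wild type, from the deposited TPM, after median-ratio scaling and with the length trend removed. Filled points have an adjusted p under 0.05, and the dashed line is the median of all tested genes. CMT2 lies left of 0 and is filled in all 3 versions in both lines, as is IBM1 in G34R.

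Compared directly, the lines differed in 2 of the 10 genes, both higher in G34W, where 21.5% of all tested genes were called higher and 11.8% lower. ROS1 was higher in G34W than in G34R by 0.33 ± 0.10 (adjusted p = 0.0136) and MET1 by 0.29 ± 0.10 (adjusted p = 0.0345). In each of these genes the libraries of the lines did not overlap, nor did they in IBM1 and DDM1, which were not called. The ratio of ROS1 to MET1 within a library, 0.86 ± 0.05 in G34R and 0.89 ± 0.06 in G34W, overlapped between the lines and with the wild type (0.85 ± 0.12). With the length trend removed neither gene was called, at 0.12 (adjusted p = 0.309) and 0.07 (adjusted p = 0.639). The call of ROS1 was also lost without G34R replicate 1 (0.28, adjusted p = 0.0519) or replicate 2 (0.30, adjusted p = 0.0576). The call of MET1 was lost without G34R replicate 1 or 2 or without G34W replicate 1 or 3, with adjusted p of 0.0849 to 0.161, under median-ratio scaling (0.21, adjusted p = 0.118) and with no filter on low values (adjusted p = 0.0581). In all, 8 of 16 alternatives called MET1 between the lines. IBM1, 0.25 ± 0.12 higher in G34W, was not called (adjusted p = 0.117), and neither were CMT2 (0.09, adjusted p = 0.564), DME (0.23, adjusted p = 0.186) and DDM1 (0.18, adjusted p = 0.231). The remaining 4 genes differed between the lines by 0.05 to 0.12 and were not called.

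The other genes of these pathways were followed in 4 lists with 51 genes, of which 47 passed the filter. Single genes of these lists are named below because they were called without overlap in a comparison with wild type. Their separation from the wild type there is part of that choice and adds no support. In G34R 8 of the 47 were called higher and 3 lower, with a median change of 0.09 beside 0.10 over all genes, of which 34.6% were called higher and 16.5% lower. Under median-ratio scaling this split became 6 higher and 9 lower, as it did under quantile normalization, and with voom and median-ratio scaling 8 and 13. That voom fit called 4605 of 18460 genes higher and 5192 lower. Limma called 10 higher and 0 lower without G34R replicate 1, and 8 and 0 without replicate 2. Of all 18544 genes, 6299 were called higher and 2664 lower without replicate 1, and 5764 and 2685 without replicate 2. In G34W limma called 24 higher and 0 lower, with a median of 0.30 beside 0.21 over all genes, of which 44.8% were called higher and 13.1% lower. At an unadjusted p under 0.05 these counts were 30 and 2, beside 8933 and 2626 over all genes. Voom with library totals called 28 and 1, beside 8198 and 2616. Centring on the median gene changes the split in G34W too: 9 were called higher and 5 lower under median-ratio scaling, 7 and 6 under quantile normalization, and 10 and 3 with the length trend removed. Between the lines limma called 15 higher in G34W and 0 lower, beside 21.5% and 11.8% of all genes (20 and 0 at an unadjusted p under 0.05, 19 and 0 by voom with library totals). Over all genes the unadjusted counts were 5187 and 2803, and those of voom with library totals 3970 and 2695. With the length trend removed 5 pathway genes were called, beside 2701 genes higher and 3212 lower. Without G34R replicate 1 there were 9, beside 3154 and 2052.

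Among the other methyltransferases and maintenance factors, 1 of 6 rose and 1 fell in G34R, and 4 rose and 0 fell in G34W. Over all genes 34.6% were called higher and 16.5% lower in G34R, and 44.8% and 13.1% in G34W. Under median-ratio scaling 1 was called higher and 1 lower in each line. With the length trend removed 1 was called higher and 0 lower in G34R, and 1 and 1 in G34W. VIM3, which binds hemimethylated CG sites and recruits MET1, measured 4.31, 4.67 and 4.49 TPM in the wild-type libraries, 6.39, 6.40 and 8.36 TPM in those of G34R and 9.77, 9.79 and 9.30 TPM in those of G34W. The 3 groups were apart, and VIM3 rose by 0.54 ± 0.12 in G34R (adjusted p = 0.00104) and by 0.95 ± 0.12 in G34W (adjusted p = 3.94e-06), the latter in all 16 alternatives. The VIM genes are close copies and could exchange reads. VIM1 rose by 0.38 ± 0.09 in G34W (adjusted p = 0.00232) and HDA6, a histone deacetylase that acts with MET1, by 0.38 ± 0.08 (adjusted p = 0.000929). Both calls were lost under median-ratio scaling and with the length trend removed, and each was kept in 12 of 16 alternatives in all. MOM1, which silences transposons downstream of DNA methylation, measured 7.07, 7.71 and 7.59 TPM in the wild-type libraries, 4.28, 5.17 and 6.65 TPM in those of G34R and 5.60, 5.0 and 6.83 TPM in those of G34W. It fell by 0.43 ± 0.14 in G34R (adjusted p = 0.0206). That call was lost with the length trend removed (-0.27, adjusted p = 0.0537) and in 4 of the 6 cases that leave out 1 library (without wild-type replicate 2 or 3, or G34R replicate 1 or 2). In G34W its difference of -0.32 ± 0.14 was not called (adjusted p = 0.0663), but MOM1 was called lower there under median-ratio scaling (-0.51, adjusted p = 0.00598), with the length trend removed (-0.44, adjusted p = 0.00471), in the fit of only 2 groups (adjusted p = 0.0362), without G34W replicate 3 (adjusted p = 0.0321) and by voom with library totals (-0.39, adjusted p = 0.00312).

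In the RNA-directed pathway 4 of 21 genes rose in G34R, where 34.6% of all genes were called higher, and 11 in G34W, where 44.8% were. Limma called 0 lower in either line, beside 16.5% of all genes in G34R and 13.1% in G34W. The count was also 0 at an unadjusted p under 0.05 and by voom with library totals. Voom with median-ratio scaling called 4 higher and 3 lower in G34R, and 7 and 3 in G34W. Under median-ratio scaling 2 were called higher and 1 lower in G34R, and 4 and 2 in G34W. With the length trend removed these counts were 6 and 0 in G34R, and 5 and 1 in G34W. IDN2, an RNA-binding protein of the polymerase V arm, measured 9.69, 10.4 and 12.0 TPM in the wild-type libraries, 13.0, 12.6 and 15.0 TPM in those of G34R and 16.8, 18.1 and 18.2 TPM in those of G34W. Its groups did not overlap, and it rose by 0.31 ± 0.10 in G34R (adjusted p = 0.0135) and by 0.68 ± 0.10 in G34W (adjusted p = 1.76e-05). RDM1, a part of the complex that brings polymerase V to DNA, rose by 0.46 ± 0.11 and 0.64 ± 0.11 (adjusted p = 0.002 and 0.000113). NRPE5, another subunit of polymerase V, rose by 0.44 ± 0.10 and 0.48 ± 0.10 (adjusted p = 0.00219 and 0.000861), where its partner NRPE1 was not called. SHH1, which reads H3K9 methylation and recruits polymerase IV, rose by 0.42 ± 0.15 and 0.71 ± 0.15 (adjusted p = 0.0315 and 0.000903). In G34W the rises of IDN2, RDM1 and SHH1 were called in all 16 alternatives and that of NRPE5 in 15, the exception being quantile normalization.

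Of the other genes of H3K9 methylation, 2 of 13 rose and 1 fell in G34R, and 6 rose and 0 fell in G34W. Over all genes 34.6% were called higher and 16.5% lower in G34R, and 44.8% and 13.1% in G34W. Under median-ratio scaling 2 were called higher and 4 lower in G34R, and 2 and 2 in G34W. With the length trend removed these counts were 1 and 1 in G34R, and 2 and 1 in G34W. SUVH5, an H3K9 methyltransferase that acts beside KYP, measured 0.70, 0.92 and 1.43 TPM in the wild-type libraries, 2.26, 2.46 and 2.43 TPM in those of G34R and 2.46, 3.26 and 2.86 TPM in those of G34W, from 15 to 70 reads. Each library of the lines stood above all of the wild type, and SUVH5 rose by 0.76 ± 0.17 and 0.95 ± 0.17 (adjusted p = 0.00142 and 0.000196). AIPP1 rose by 0.56 ± 0.14 in G34R (adjusted p = 0.00351), a call lost with the length trend removed (0.33, adjusted p = 0.0724). In G34W it rose by 0.38 ± 0.14 (adjusted p = 0.0309) with overlapping groups, a call lost under median-ratio scaling (0.18, adjusted p = 0.336), with the length trend removed (0.12, adjusted p = 0.519), with no filter on low values (adjusted p = 0.0657), by voom with library totals (adjusted p = 0.0584) and without wild-type replicate 2 or G34W replicate 2 or 3 (adjusted p of 0.0875 to 0.173). LDL1, a histone demethylase of the LSD1 family, rose by 0.52 ± 0.12 in G34W (adjusted p = 0.00196), and SUVH1, a methylation reader known to aid transcription, by 0.37 ± 0.10 (adjusted p = 0.00699). The call of SUVH1 was lost under median-ratio scaling and with the length trend removed, and was kept in 12 of 16 alternatives in all. That of LDL1 was lost under quantile normalization (0.29, adjusted p = 0.0559).

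Of the other demethylation genes, 1 of 7 rose and 1 fell in G34R, and 3 rose and 0 fell in G34W. The shares of all genes were the same 34.6% and 44.8% called higher, and 16.5% and 13.1% called lower. Under median-ratio scaling 1 was called higher and 3 lower in G34R, and 2 and 0 in G34W. With the length trend removed these counts were 1 and 2 in G34R, and 2 and 0 in G34W. DML2, a glycosylase of the ROS1 family, measured 5.82, 4.55 and 4.81 TPM in the wild-type libraries, 2.93, 3.48 and 4.40 TPM in those of G34R and 5.06, 5.82 and 5.83 TPM in those of G34W. The G34R libraries were the 3 lowest of the 9, and DML2 fell by 0.40 ± 0.14 there (adjusted p = 0.0275), a call lost without wild-type replicate 1, G34R replicate 1 or G34R replicate 2. MBD7, which recruits the demethylation machinery to methylated DNA, rose by 0.56 ± 0.12 in G34R and 0.65 ± 0.12 in G34W (adjusted p = 0.000686 and 0.000138). ZDP, the phosphatase that cleans the gap left by ROS1, rose by 0.56 ± 0.10 in G34W (adjusted p = 0.000208). IDM2, a partner of MBD7, rose by 0.50 ± 0.19 there (adjusted p = 0.0302), a call kept in 8 of 15 alternatives.

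**Figure D5:**
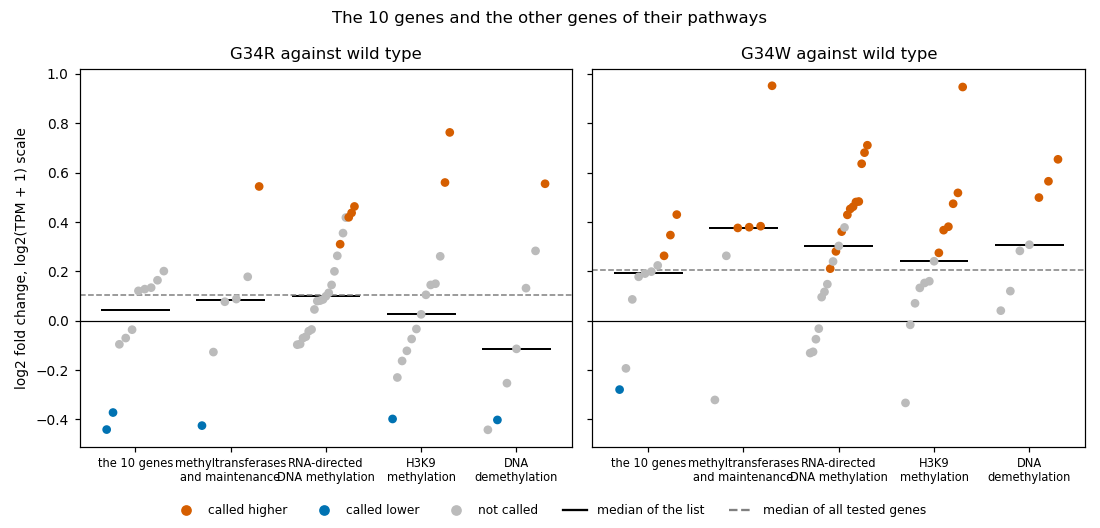
Log2 fold change of the 10 genes and of the other genes in 4 pathway lists, in G34R (left) and G34W (right) against wild type, with the median of each list (black bar) and of all tested genes (dashed). In G34W the 24 called genes of the pathway lists lie above 0, and VIM3 and SUVH5 are the highest at 0.95.

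Loci known to respond to the loss of methylation were looked at in turn. FWA, a gene that DNA methylation keeps silent in vegetative tissue, had 3, 4 and 0 reads in the wild-type libraries, 0, 4 and 0 in those of G34R and 2, 1 and 0 in those of G34W. SDC, silenced by the RNA-directed pathway together with CMT3, had 0 reads in each wild-type library, 0, 0 and 2 in G34R and 0, 1 and 2 in G34W. Neither gene was expressed above a few reads in any library, and neither passed the filter for the test. QQS, an orphan gene with variable methylation, measured 4.53, 2.61 and 3.44 TPM in the wild-type libraries, 1.43, 1.83 and 3.69 TPM in those of G34R and 3.55, 3.42 and 4.65 TPM in those of G34W. QQS was not called in G34R (-0.49 ± 0.22, adjusted p = 0.0764) but was called lower with the length trend removed (-0.81, adjusted p = 0.00839). In all, 5 of 15 alternatives called it lower there, with adjusted p down to 0.0049. QQS was higher in G34W than in G34R (0.61 ± 0.22, adjusted p = 0.0441) with overlapping libraries of 9 to 27 reads. EPF2, a stomatal signal gene that gains methylation where ROS1 is lost, had 9 to 33 reads per library and was not called in any comparison, at 0.41 ± 0.25 in G34W (adjusted p = 0.163).

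For the 3 genes with the smallest adjusted p, the genes with the most similar pattern over the 9 libraries were sought among 6725 genes with a symbol and a mean of at least 5 TPM. The measure was Pearson's r of log2(TPM + 1), which also takes up differences between groups and the length trend, and it is given as a description. For IBM1 they were PLC8 (r = 0.985), CRK1 (r = 0.977) and FRO6 (r = 0.973). FRO6, with means of 244, 168 and 205 TPM in wild type, G34R and G34W, had the same order of groups as IBM1. For DME they were VPS45 (r = 0.991), VP2 (r = 0.985) and EMB3142 (r = 0.983), and for CMT2 they were emb2410 (r = 0.969), ARF2 (r = 0.967) and RPP8 (r = 0.964). CMT2 and IBM1 correlated with each other at r = 0.818 over the same libraries, and CMT2 and CMT3 at r = -0.000877.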

How the data were processed

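Messenger RNA of 9 libraries was analysed, grouped and numbered by their titles. A Takara MiniBEST kit served for extraction and an NEBNext Ultra RNA kit for library making, per the labels' protocols. The submitters' processing notes name the TAIR10 genome and the tools HISAT2 2.1.10, fastp 0.20.1 and DESeq2 1.26.0. No source used here gives the read counter or strand setting. The deposited table holds TPM, made by the authors, although its column names speak of counts: each column sums to the same total. TPM times the gene span in the TAIR10.1 reference table gave whole reads within a relative tolerance of 1e-06 for 23088 of the 23235 genes above 0 (99.37%), so the spans include introns; 210 loci had no span. No positions or sequences are given, since the builds differ.

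The 18544 genes that averaged 1 TPM or more entered limma 3.58.1 (R 4.3.3) as log2(TPM + 1), in 1 model over the 3 groups with a variance trend and two-sided Benjamini-Hochberg adjusted p-values at 0.05, after a check on simulated data. The pseudocount makes fold changes of low genes too small. Whether replicates came from separate plantings is not stated in the labels, so the p-values cover no more than the spread among these libraries, which may be technical. Same-numbered libraries did not deviate together and are not paired. The alternatives were a pseudocount of 0.1, no filter, a mean of at least 5 TPM, median-ratio scaling (size factors from the median gene), quantile normalization, a replicate block, fits of only 2 groups, leaving out each replicate, and voom on the recovered reads. Voom with library totals, exonic TPM, ratios of gene pairs and removal of the length trend (a smooth fit of each library's differences on exonic length, known for 99.574% of tested genes) were added after the data were seen.

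The members and lists were chosen with earlier results of these data known. Named genes were the 10 members, silencing targets above 0, up to 4 called genes per pathway list with groups that did not overlap, by smallest adjusted p, and the 3 genes most like each of 3 members. Listed loci to which the reference gives another symbol were left out (CLSY2, CLSY3, CLSY4 and BNS). DRM1, CMT1, VIM2 and AGO9 had means under 1 TPM.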

Additional observations from a re-analysis of the deposited data

Results flagged for a closer look

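The difference between the lines passed the direct test for 2 of the 10 genes. ROS1 was higher in G34W than in G34R by 0.333 (adjusted p = 0.0136 in limma), in 3 of 3 libraries against every G34R library. MET1 was higher in G34W than in G34R by 0.295 (adjusted p = 0.0345 in limma), also without overlap. The libraries of the lines were apart in 4 of the 10 genes, IBM1 and DDM1 included, which were not called. The share of all genes without overlap was not taken, so the lack of overlap adds no weight. Both differences were smaller and not called with the length trend removed, at 0.116 for ROS1 and 0.0703 for MET1.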

How the results depend on the processing

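Over the gene-level comparisons with up to 16 alternatives each, 643 values kept direction and side of the threshold, 63 lost the call, 19 gained it and 35 turned their sign. The counts of called members were 1 to 2 in G34R, 2 to 4 in G34W and 0 to 4 between the lines when 1 library was left out, and those of pathway genes 8 to 11, 18 to 23 and 9 to 19. Over all 18544 genes these fits called 5764 to 6299 higher and 2664 to 3385 lower in G34R, and 7420 to 7630 and 2201 to 2251 in G34W. Between the lines they called 3116 to 4433 higher and 1776 to 2052 lower. Voom with median-ratio scaling called 4 members (CMT2, IBM1, MET1 and ROS1, all lower) and 21 pathway genes in G34R. Of all 18460 genes in that fit, 4605 were called higher and 5192 lower. In G34W 2 members were called under median-ratio scaling and 2 under quantile normalization, and 14 and 13 pathway genes, with 13 when the length trend was removed. Over all genes 4500 were called higher and 4509 lower under median-ratio scaling, and 4680 and 4213 under quantile normalization. With the length trend removed these were 4470 and 4529. Between the lines, 1 member was called with no filter, 1 under median-ratio scaling, 1 under quantile normalization and 0 with the length trend removed, and 9 pathway genes under median-ratio scaling and 5 with the length trend removed. Over all genes the counts higher and lower were 3703 and 2133 with no filter, and 2492 and 3250 under median-ratio scaling. They were 2992 and 2870 under quantile normalization, and 2701 and 3212 with the length trend removed. The members that turned their sign were not called in either version. With the length trend removed these were, in G34R, MET1 (0.0093), ROS1 (0.026) and NRPE1 (0.115), in G34W NRPE1 (-0.0279), and between the lines CMT3 (-0.0953), CMT2 (-0.108), DRM2 (-0.00558), DME (-0.0486), KYP (-0.0717) and NRPE1 (-0.143). Under median-ratio scaling they were, in G34W, MET1 (-0.00907), CMT3 (-0.0111), KYP (-0.00919) and NRPE1 (-0.0853), and between the lines CMT3 (-0.0264) and KYP (-0.0265), and the same with voom at -0.00679, -0.015, -0.0116, -0.11, -0.0308 and -0.0319. Under quantile normalization they were, in G34R, DRM2 (-0.0239) and KYP (-0.0539), in G34W MET1 (-0.0261), CMT3 (-0.0319), DRM2 (-0.00829), KYP (-0.0679) and NRPE1 (-0.148), and between the lines CMT3 (-0.0335) and KYP (-0.0141). Leaving out 1 library moved NRPE1 in G34R from -0.0957 to 0.0394, with the sign turned without G34R replicate 1. Between the lines it moved CMT3 from -0.019 to 0.168 and CMT2 from -0.0313 to 0.207, below 0 without G34R replicate 1, and KYP from -0.0652 to 0.12, below 0 without G34W replicate 3. Apart from the length trend, whose removal takes out what it was fitted to, the cause of these changes was not tested.

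A fit with the replicate number as a block called 2, 4 and 2 members in G34R, G34W and between the lines, and 12, 24 and 15 pathway genes. Over all genes it called 6447 higher and 3122 lower in G34R, 8314 and 2433 in G34W, and 4028 and 2210 between the lines. Over 84 pairs of a named gene and a comparison it changed 1 call: MOM1 became lower in G34W (-0.321, adjusted p = 0.0456). Calls of pathway genes outside these pairs changed too. The H3K9 list had 2 genes called lower in G34R, and 1 without the block. The RNA-directed list had 10 called higher in G34W, and 11 without the block. Same-numbered libraries of different groups correlated at -0.023 to 0.0411 over 9 pairs, and 1 of 9 libraries correlated best with its own number. NRPE1 had no value at a mean of at least 5 TPM. SUVH5, QQS and EPF2 rest on 9 to 70 reads per library, which limits their precision.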
